A study of Mus musculus with 14 samples.

Results

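The actin filament genes described here are Lcp1, the plastin of blood cells, with its paralogs Pls1 and Pls3, the filament nucleators Fmn2, Spire1 and Spire2, the filament severing gene Cfl1, the monomer binding gene Pfn1, and the cytoplasmic actins Actb and Actg1. They were taken by name, with earlier results of these data known. They are 10 of the 20638 genes with a symbol in the count files. RNA-seq libraries were made from full-grown mouse oocytes arrested at the germinal vesicle (GV) stage, from mostly C57BL6 females aged 4 to 6 weeks that had received 5 IU of equine chorionic gonadotropin 48 h earlier. Each library held 20 oocytes freed of cumulus cells and pooled from 3 or 4 mice. Ago2 fl/fl oocytes (3 libraries) carried floxed Ago2 alleles without Cre and were the controls of the Ago2 series. Ago2 ADH oocytes (3 libraries) carried 1 floxed allele, deleted by Cre under the oocyte promoter of Zp3, and 1 knock-in allele coding for AGO2 that cannot cleave RNA. Ago2 null oocytes (2 libraries) came from the same crosses, carried floxed alleles with this Cre and lacked Ago2. Cre and mutant genotype therefore cannot be told apart in the Ago2 series. Dicer WT oocytes (3 libraries) were compared with Dicer KO oocytes (3 libraries) from oocyte-specific Dicer null females. Zp3 is transcribed in growing oocytes, so floxed alleles are deleted there from the growth phase onward.

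Plastins hold actin filaments together in tight parallel bundles. Lcp1, also called L-plastin, is known from leukocytes and many tumour cells, Pls1 from the microvilli of epithelia, and Pls3 from most solid tissues. In oocytes, formin 2 (Fmn2) and the Spire proteins cooperate in assembling the cytoplasmic actin mesh that moves the spindle to the cortex, profilin 1 (Pfn1) supplies actin monomers to formins, and cofilin 1 (Cfl1) severs filaments. RNA cleavage by AGO2, guided by small RNAs that Dicer produces, is the activity that the knock-in allele of Ago2 ADH oocytes lacks. The paper found this activity extremely reduced in them, with a residue that may come from persisting wild-type AGO2. With only 1 Ago2 allele, it adds, they likely hold less AGO2 protein than wild-type oocytes. The question addressed by the comparisons was which transcripts change when AGO2 cleavage is reduced, or when the AGO2 protein or Dicer is missing.

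The promoters of the genes with the largest rises, Lcp1 and Actg1, are shown because Lcp1 has separate annotated starts that the counts cannot tell apart. Each is written 5' to 3' on the strand of the gene, from 250 bases before to 50 bases after a transcription start in RefSeq on GRCm38.p6. Capitals mark a CArG box, the motif bound by serum response factor, which is known for regulating actin genes. The Lcp1 promoters lie at chr14:75130873-75131172 and chr14:75136175-75136474 on the plus strand, and the Actg1 promoter at chr11:120348446-120348745 on the minus strand.
Lcp1 upstream start: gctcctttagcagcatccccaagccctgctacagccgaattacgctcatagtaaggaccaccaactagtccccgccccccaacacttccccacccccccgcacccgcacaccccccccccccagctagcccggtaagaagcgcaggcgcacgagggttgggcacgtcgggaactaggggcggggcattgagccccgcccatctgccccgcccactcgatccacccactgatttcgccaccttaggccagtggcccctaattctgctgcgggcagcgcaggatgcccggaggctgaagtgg
Lcp1 downstream start: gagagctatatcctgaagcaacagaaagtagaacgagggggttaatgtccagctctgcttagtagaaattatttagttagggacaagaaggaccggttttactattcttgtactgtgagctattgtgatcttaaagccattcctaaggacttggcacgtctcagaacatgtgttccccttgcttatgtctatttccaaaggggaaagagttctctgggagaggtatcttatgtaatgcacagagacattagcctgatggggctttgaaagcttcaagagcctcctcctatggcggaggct
Actg1: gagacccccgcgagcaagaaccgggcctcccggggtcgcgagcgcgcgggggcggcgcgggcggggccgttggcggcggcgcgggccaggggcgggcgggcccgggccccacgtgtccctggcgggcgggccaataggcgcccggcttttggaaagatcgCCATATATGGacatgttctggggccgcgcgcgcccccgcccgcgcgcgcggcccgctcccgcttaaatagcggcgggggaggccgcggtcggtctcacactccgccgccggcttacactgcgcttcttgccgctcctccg
The CArG box was searched on both strands in the promoters of the 8 genes that had one listed, 11 promoters in all. Actb and Spire1 had no promoter listed and were not searched. Among the promoters searched, the box was found only in Actg1, where its first base lies at position -90 from the start. Neither Lcp1 promoter held a match. Of all 32851 promoters of 300 bases, 1.63% held one. Base composition differed between the Lcp1 starts, with 66.3% G and C upstream and 44.3% downstream, while the Actg1 promoter had 77.3%. The transcripts of Lcp1 shared nearly all their counted reads, differing by 2 to 33 counts per library, so the level reported for Lcp1 is that of the gene and not of either start.

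Counts on transcripts summed to between 29380403 and 58285057 per library. The oocyte markers Gdf9, Bmp15 and the zona pellucida genes were abundant in all libraries, with a summed level of the oocyte list of 12305 to 19226 CPM, the usual unit of counts relative to library size, here after TMM scaling over all 14 libraries. The counts do not show the deleted exons alone. Over the whole gene, the log2 fold change of Ago2 was -1.95 in Ago2 null and -0.87 in Ago2 ADH oocytes. That of Dicer1 was 1.26 in Dicer KO oocytes, above rather than below Dicer WT. Neither change was limited to the mutants of that gene. Ago2 also fell in Dicer KO oocytes (log2 -0.56), and Dicer1 also rose in Ago2 ADH (0.67) and Ago2 null oocytes (0.59). By the tags in the count files, the libraries of each Ago2 genotype were sequenced together in 1 lane, so in the Ago2 series lane and genotype cannot be told apart, whereas each library of the Dicer series had its own lane. Pooled oocytes also cannot separate more cells with a transcript from more transcript per cell.

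Lcp1 changed most of the 10 genes in all 3 comparisons with controls. Lcp1 lies at chr14:75131105-75230842 on GRCm38, the build of all gene positions given here. Its level was 52.7, 60.2 and 56.8 CPM in the Ago2 fl/fl libraries, 363, 374 and 386 CPM in the Ago2 ADH libraries, and 363 and 336 CPM in the Ago2 null libraries. No control library came near a mutant library. This was a 6.83-fold rise in Ago2 ADH oocytes (log2 fold change 2.77 ± 0.058 SE, adjusted p = 9.25e-18 by the quasi-likelihood test of edgeR, adjusted by Benjamini-Hochberg) and a 6.31-fold rise in Ago2 null oocytes (2.66 ± 0.068, adjusted p = 7.89e-15). In the Dicer series Lcp1 was at 76.7, 71.9 and 70.4 CPM in Dicer WT and at 539, 541 and 576 CPM in Dicer KO libraries, a 7.55-fold rise (2.92 ± 0.064, adjusted p = 4.97e-17). Ordered by log2 fold change, Lcp1 was number 192 of 13979 genes tested in Ago2 ADH, number 273 of 14302 in Ago2 null and number 149 of 13799 in Dicer KO oocytes, counted from the largest rise.

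The other plastins moved differently from Lcp1 and from each other. Pls1, at chr9:95752642-95845306, was the most abundant plastin of the control oocytes. Its level was 186, 174 and 169 CPM in Ago2 fl/fl and 149, 140 and 181 CPM in Ago2 ADH libraries. These ranges overlapped, and the log2 difference of -0.12 (95% interval -0.27 to 0.02) did not pass the test at a false discovery rate (FDR) of 1% (adjusted p = 0.172 by edgeR). Without Ago2 ADH replicate 3, whose Pls1 level was within the control range, the log2 difference was -0.25 with an adjusted p of 0.00236. In Ago2 null libraries Pls1 was at 134 and 146 CPM, a fall of 0.30 on the log2 scale that passed the test (log2 fold change -0.30 ± 0.063, adjusted p = 0.000763 by edgeR), but not without Ago2 null replicate 1 (adjusted p = 0.011). In the Dicer series Pls1 fell from 235, 216 and 232 CPM to 180, 175 and 181 CPM (-0.35 ± 0.059, adjusted p = 8.2e-05), with no overlap between the groups.

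Pls3, on the X chromosome at chrX:75785653-75875182, was, with Spire2, one of the rare genes of the set, with 93 to 425 counts per library. It was at 2.62, 1.57 and 3.12 CPM in Ago2 fl/fl, at 7.75, 6.34 and 5.43 CPM in Ago2 ADH, and at 6.58 and 6.17 CPM in Ago2 null libraries. All mutant libraries lay above all control libraries. The rise was 2.77-fold in Ago2 ADH (log2 1.47 ± 0.211, adjusted p = 1.05e-05 by edgeR) and 2.68-fold in Ago2 null oocytes (1.42 ± 0.228, adjusted p = 7.14e-05). In Dicer WT libraries Pls3 was at 2.90, 3.16 and 2.81 CPM and in Dicer KO libraries at 6.99, 5.62 and 7.28 CPM, a 2.24-fold rise (1.16 ± 0.194, adjusted p = 7.37e-05). The standard errors of Pls3 were larger than those of any of the other 9 genes in Ago2 ADH, Ago2 null and Dicer KO oocytes.

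**Figure D1:**
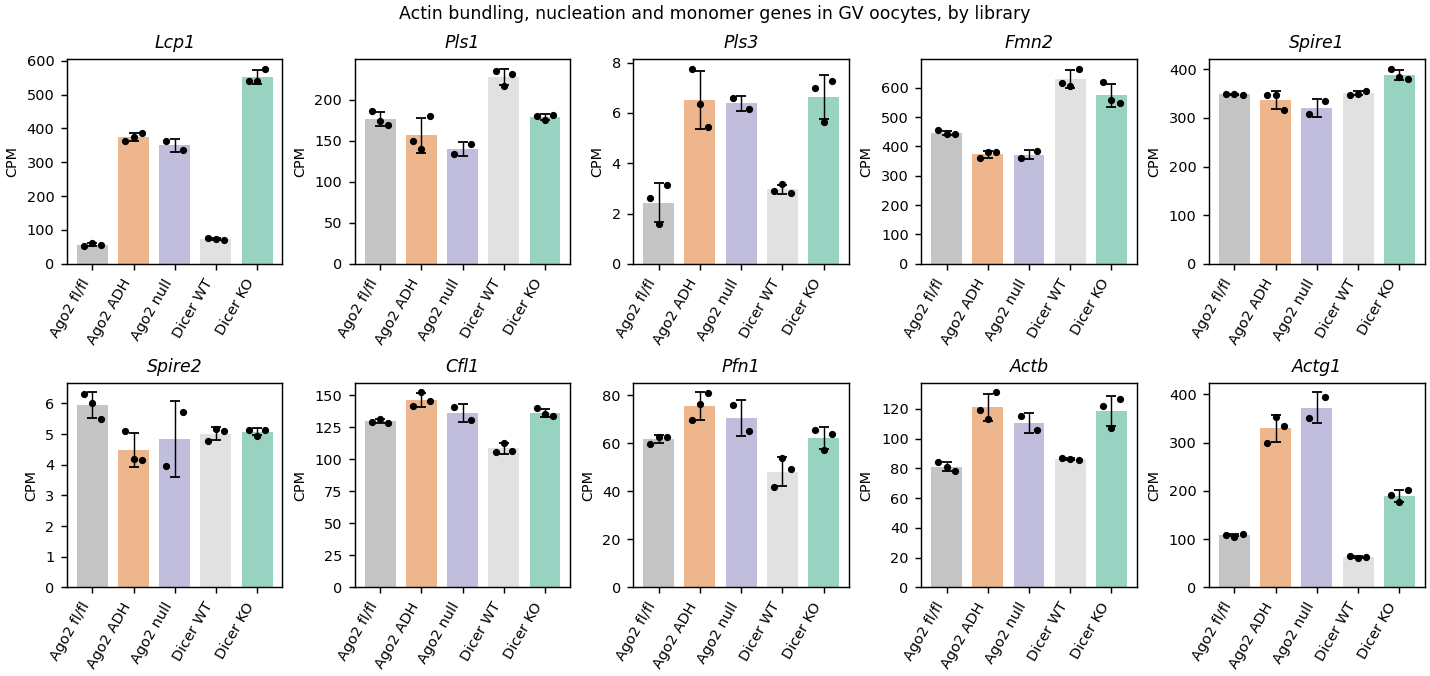
Level of each gene in CPM (vertical axis, from 0, with its own scale in each panel) in the 5 groups. Bars are means, error bars SD and points single libraries (n = 3, Ago2 null n = 2). Lcp1 lay between 52.7 and 76.7 CPM in the control libraries and between 336 and 576 CPM in the mutant libraries, while Spire1 stayed between 308 and 401 CPM in all 14 libraries.

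With these changes the plastin transcripts of the oocyte changed their make-up. Levels were compared between genes as RPKM, that is CPM per kilobase of transcript. Lcp1 made up 21.2, 24.8 and 24.1% of the summed plastin RPKM in the Ago2 fl/fl libraries and 68.8, 71.0 and 66.5% in the Ago2 ADH libraries. In Ago2 null libraries the share was 71.2 and 67.9%. In Dicer WT libraries it was 23.7, 24.0 and 22.4%, close to the other control group, and in Dicer KO libraries 73.4, 74.2 and 74.5%. The mean share was higher by 45.4 percentage points in Ago2 ADH (68.8% ± 2.23 against 23.4% ± 1.90, SD, n = 3 each), by 46.2 in Ago2 null (69.6% ± 2.31, n = 2) and by 50.7 in Dicer KO oocytes (74.0% ± 0.566 against 23.4% ± 0.831, n = 3 each). The 2-sided exact permutation test over libraries gave p = 0.1, 0.2 and 0.1, the smallest values possible with so few libraries. The summed plastin level was higher too in the mutants. It was 61.3 to 64.7 RPKM in Ago2 fl/fl, 137 to 151 in Ago2 ADH, 129 to 133 in Ago2 null, 78.1 to 84.3 in Dicer WT and 190 to 201 RPKM in Dicer KO libraries. Pls3 never reached more than 1.79% of the plastin level.

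The ratio of Lcp1 to Pls1 on the RPKM scale turned over between control and mutant oocytes. It was 0.274 to 0.333 in Ago2 fl/fl and 0.293 to 0.321 in Dicer WT libraries, so Pls1 exceeded Lcp1 in each control library. It was 2.06 to 2.58 in Ago2 ADH, 2.23 to 2.62 in Ago2 null and 2.89 to 3.06 in Dicer KO libraries, where Lcp1 exceeded Pls1.

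The fold changes of the nucleator genes were smaller than those of Lcp1 and Pls3, and of the size of those of Pls1. Fmn2, at chr1:174501752-174822729, was one of the most abundant genes of the set. It was at 454, 442 and 443 CPM in Ago2 fl/fl and at 360, 381 and 380 CPM in Ago2 ADH libraries, with no overlap. This fall to 0.865 of the control passed the test (log2 -0.21 ± 0.044, adjusted p = 0.00061 by edgeR). In Ago2 null libraries, at 361 and 384 CPM, Fmn2 also fell (-0.23 ± 0.054, adjusted p = 0.00197). That second call was lost without Ago2 fl/fl replicate 2 (adjusted p = 0.0172), without Ago2 fl/fl replicate 3 (0.0112) or without Ago2 null replicate 1 (0.021), and with the replicate number as a block (0.0249). In the Dicer series the Fmn2 levels of 617, 606 and 664 CPM in WT and 618, 557 and 547 CPM in KO libraries overlapped, and the log2 difference of -0.14 (95% interval -0.26 to -0.01) missed the threshold (adjusted p = 0.0885).

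Spire1, on chromosome 18, did not pass the test in any comparison. It was at 349, 349 and 348 CPM in Ago2 fl/fl, 347, 347 and 316 CPM in Ago2 ADH, and 308 and 334 CPM in Ago2 null libraries. The log2 differences were -0.0015 in Ago2 ADH (95% interval -0.09 to 0.09, adjusted p = 0.983 by edgeR) and -0.09 in Ago2 null oocytes (-0.20 to 0.02, adjusted p = 0.215). In Dicer WT libraries it was at 348, 349 and 356 CPM and in Dicer KO libraries at 401, 384 and 381 CPM. These groups did not overlap, and the log2 difference of 0.15 (0.03 to 0.26) had an adjusted p of 0.0419, above the threshold of 1%. Its paralog Spire2, at chr8:123332713-123369518, was far rarer and made up 2.54 to 3.77% of the summed Spire RPKM. Its level was 6.32, 6.005 and 5.49 CPM in Ago2 fl/fl, 5.11, 4.19 and 4.14 CPM in Ago2 ADH, and 3.95 and 5.72 CPM in Ago2 null libraries. Spire2 libraries of Ago2 ADH lay below those of the controls, but with a log2 difference of -0.36 (-0.64 to -0.07) and an adjusted p of 0.0472 Spire2 did not pass. In Ago2 null oocytes the difference was -0.27 (-0.61 to 0.08, adjusted p = 0.219 by edgeR). Dicer WT libraries, at 4.76, 5.15 and 5.10 CPM, and Dicer KO libraries, at 5.14, 4.94 and 5.14 CPM, overlapped (log2 0.02, interval -0.33 to 0.37, adjusted p = 0.952).

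Both genes for monomer supply and turnover had small rises in Ago2 ADH and Dicer KO oocytes. Cfl1, at chr19:5490455-5494031, was at 129, 131 and 129 CPM in Ago2 fl/fl and at 141, 152 and 146 CPM in Ago2 ADH libraries, a 1.17-fold rise (log2 0.22 ± 0.049, adjusted p = 0.000925 by edgeR). At 141 and 131 CPM in Ago2 null libraries, its difference of 0.10 (95% interval -0.02 to 0.22) did not pass (adjusted p = 0.188). In the Dicer series it rose from 106, 113 and 106 CPM to 140, 135 and 134 CPM, or 1.25-fold (0.33 ± 0.062, adjusted p = 0.000265). Pfn1, at chr11:70651844-70656799, was at 59.6, 62.5 and 62.7 CPM in Ago2 fl/fl and at 69.5, 76.1 and 80.7 CPM in Ago2 ADH libraries, a 1.26-fold rise (0.34 ± 0.064, adjusted p = 0.000221). In Ago2 null oocytes, at 75.8 and 65.0 CPM, the difference of 0.22 (0.07 to 0.37) did not pass (adjusted p = 0.0226 by edgeR), although it did without Ago2 null replicate 2 (log2 0.33, adjusted p = 0.00305). In the Dicer series Pfn1 rose 1.29-fold, from 41.6, 53.9 and 49.1 CPM to 65.5, 57.1 and 63.9 CPM (0.36 ± 0.092, adjusted p = 0.00329). This call was lost without Dicer WT replicate 1 (adjusted p = 0.0251), which had the lowest level, without Dicer KO replicate 1 (0.0125) or replicate 3 (0.0116), and with library totals in place of TMM (0.0128).

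Of the cytoplasmic actins, which differ by only a few residues, Actg1 rose far more than Actb. Actg1, at chr11:120345687-120348495, was at 110, 105 and 111 CPM in Ago2 fl/fl libraries. In Ago2 ADH libraries it was at 299.6, 353 and 335 CPM and in Ago2 null libraries at 350.0 and 395 CPM. The rise was 3.13-fold (log2 1.65 ± 0.057, adjusted p = 1.29e-14 by edgeR) and 3.501-fold (1.81 ± 0.062, adjusted p = 3.59e-13), with wide gaps between controls and mutants. In the Dicer series Actg1 rose 2.98-fold, from 65.4, 61.9 and 63.6 CPM to 191, 178 and 202 CPM (1.57 ± 0.067, adjusted p = 5.55e-13). Actb, at chr5:142903115-142907976, was at 84.1, 81.2 and 78.5 CPM in Ago2 fl/fl, 119, 113 and 131 CPM in Ago2 ADH, and 115 and 106 CPM in Ago2 null libraries. It rose 1.54-fold in Ago2 ADH (0.62 ± 0.061, adjusted p = 9.09e-08) and 1.39-fold in Ago2 null oocytes (0.47 ± 0.066, adjusted p = 1.61e-05). In Dicer KO libraries, at 122, 107 and 126 CPM, it was 1.37-fold above the 86.9, 86.5 and 85.3 CPM of Dicer WT libraries (0.46 ± 0.070, adjusted p = 2.79e-05).

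Actg1 made up 56.0 to 58.2% of the summed Actb and Actg1 RPKM in Ago2 fl/fl and 41.3 to 42.5% in Dicer WT libraries, so the control groups differed in which actin led. The share was 71.2 to 75.5% in Ago2 ADH, 74.9 to 78.6% in Ago2 null and 60.6 to 61.9% in Dicer KO libraries. The summed level was 96.3 to 99.9 RPKM in Ago2 fl/fl, 216 to 239.9 in Ago2 ADH, 239 to 257 in Ago2 null, 76.7 to 78.8 in Dicer WT and 147 to 169 RPKM in Dicer KO libraries. Actb, Actg1, Cfl1 and Pfn1 have near-identical pseudogene copies, and alignments at more than 1 place were tallied apart from the counts. Per count on transcripts, these alignments moved with genotype, at 0.557 to 0.597 in Ago2 fl/fl, 1.58 to 1.66 in Ago2 ADH, 1.57 to 1.66 in Ago2 null, 0.388 to 0.536 in Dicer WT and 0.939 to 1.19 in Dicer KO libraries. Their part in the levels of these 4 genes was not tested, and those levels are therefore uncertain.

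**Figure D2:**
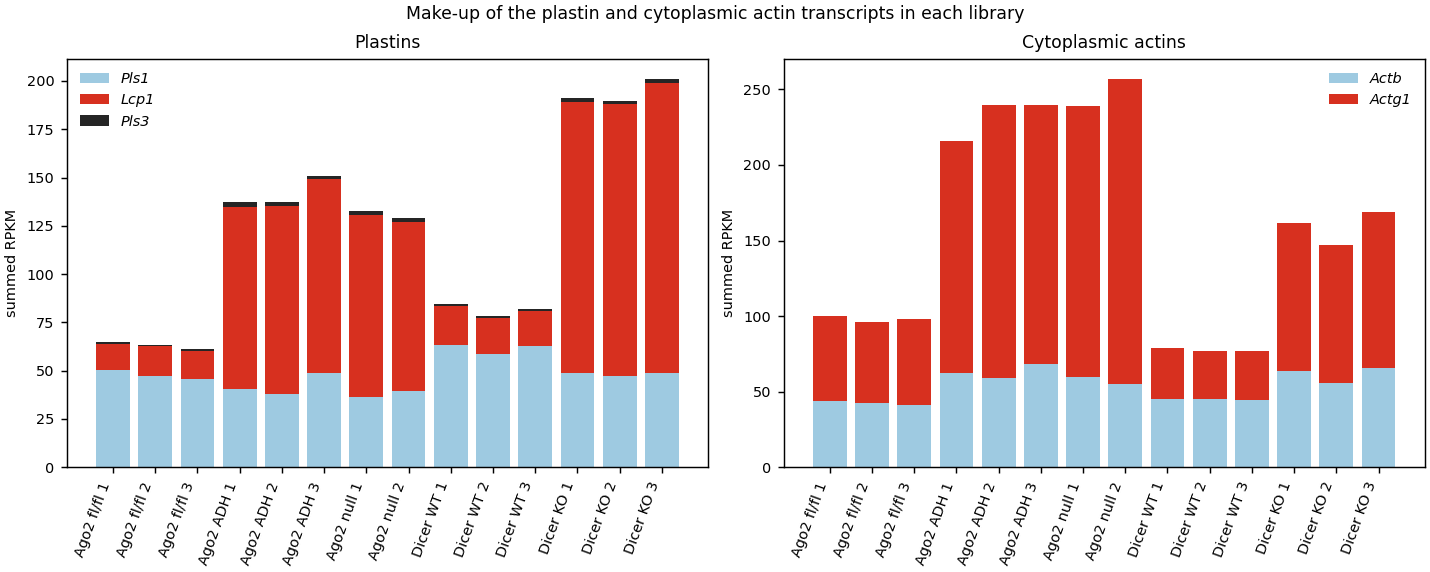
Summed RPKM (vertical axis, from 0) of the plastins (left) and cytoplasmic actins (right) in each of the 14 libraries, with each gene as a segment of the bar. Lcp1 is the smaller segment beside Pls1 in all control libraries (21.2 to 24.8%) and the larger in all mutant libraries (66.5 to 74.5%), and Actg1 takes 41.3 to 58.2% of the actin level in controls and 60.6 to 78.6% in mutants.

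These changes rearranged the order of the 10 genes by RPKM. In Ago2 fl/fl oocytes Pfn1 (71.6 RPKM ± 2.03, SD, n = 3), Fmn2 (69.3 ± 1.06) and Spire1 (69.2 ± 0.0856) led with overlapping ranges. Actg1 (55.7 ± 1.53) and Cfl1 (55.1 ± 0.668) came next and overlapped, followed by Pls1 (47.6 ± 2.32) and Actb (42.3 ± 1.45). Lcp1 was the eighth, at 14.7 ± 0.980 RPKM, above only Spire2 and Pls3. Dicer WT oocytes were led by Fmn2 (97.7 ± 4.80) and again had Lcp1 in the eighth place (19.0 ± 0.860). In Ago2 ADH oocytes Actg1 (169 ± 14) and Lcp1 (97.4 ± 2.96) led, each apart from the next lower gene. In Ago2 null oocytes the same genes led, but the range of Lcp1 (91.0 ± 4.97, n = 2) overlapped that of Pfn1 below it (81.8 ± 8.84). In Dicer KO oocytes Lcp1 was the first (144 ± 5.45), apart from Actg1 (97.3 ± 6.20), which overlapped Fmn2. Among the 20241 genes with a transcript length, Lcp1 went from rank 3559 by RPKM in Ago2 fl/fl to 609 with Ago2 ADH and 664 with Ago2 null, and from rank 2812 in Dicer WT to 365 in Dicer KO oocytes. Actg1 went from rank 1121 to 326 with Ago2 ADH and 288 with Ago2 null. Its rank was 1805 in Dicer WT and 576 in Dicer KO oocytes. Spire1 kept a rank between 755 and 972 in all 5 groups.

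By count, 6 of the 10 genes rose in Ago2 ADH oocytes (Lcp1, Pls3, Cfl1, Pfn1, Actb and Actg1), 1 fell (Fmn2) and 3 did neither. Of all 13979 genes tested there, 21.0% rose and 19.9% fell. In Ago2 null oocytes 4 rose (Lcp1, Pls3, Actb and Actg1), 2 fell (Pls1 and Fmn2) and 4 did neither, beside 18.6% and 18.7% of 14302 genes. In Dicer KO oocytes 6 rose (those of Ago2 ADH oocytes) and 1 fell (Pls1), beside 16.9% and 17.6% of 13799 genes. Of the genes counted, Cfl1, Pfn1, Actb and Actg1 have the uncertain levels described above. All 10 genes passed the filter on low counts in each comparison. The genes of the set are mostly abundant, and among genes with a mean count of at least 200 the shares that rose and fell were 23.2% and 25.8% in Ago2 ADH, 21.4% and 25.1% in Ago2 null, and 19.5% and 23.1% in Dicer KO oocytes. The Ago2 ADH and Ago2 null comparisons share their control libraries, so their values for these genes are not independent.

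**Figure D3:**
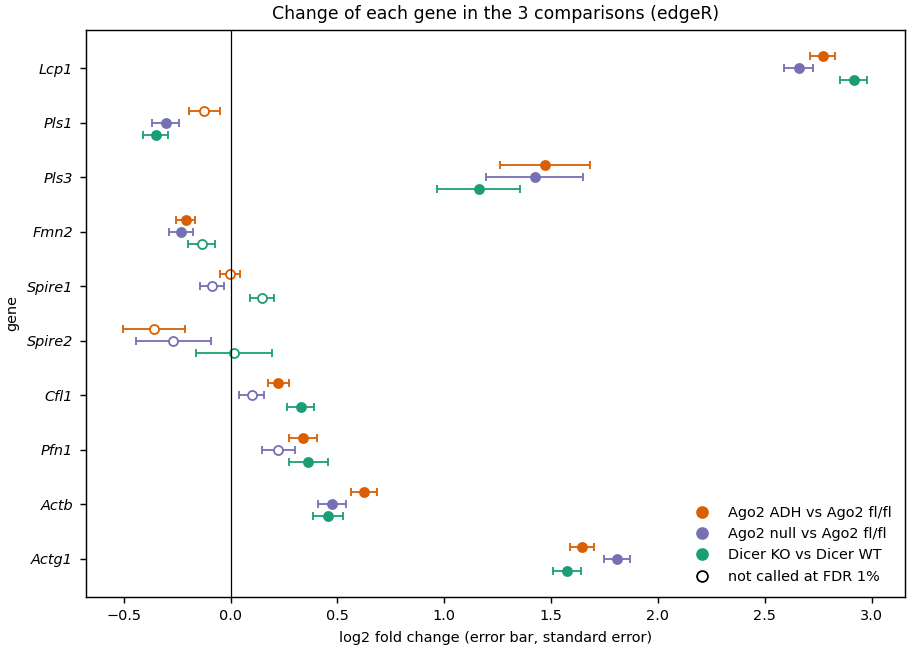
Log2 fold change of each gene (horizontal axis, error bars SE) in the 3 comparisons with controls. Filled points passed edgeR's test at an FDR of 1% and open points did not. Lcp1 lies between 2.66 and 2.92, Actg1 between 1.57 and 1.81, Pls3 between 1.16 and 1.47, and the other 7 genes between -0.36 and 0.62.

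Ago2 ADH oocytes were also compared directly with Ago2 null oocytes. At an FDR of 1% none of the 10 genes differed by edgeR or by DESeq2, beside 0.118% of all genes by edgeR. An unadjusted p under 0.05 by edgeR was found for 1 of the 10, Actg1, beside 1931 of all 19306 transcripts tested. Actg1 was lower in Ago2 ADH by 0.18 on the log2 scale (log2 -0.18 ± 0.072, 95% interval -0.32 to -0.04, unadjusted p = 0.0215 by edgeR, adjusted p = 0.401). For Lcp1 the log2 difference of Ago2 ADH from Ago2 null was 0.09 (interval -0.03 to 0.22, adjusted p = 0.643). The effects of Ago2 ADH and Dicer KO were compared by an interaction term, which was called for none of the 10 genes by either tool and for 3.74% of all genes by edgeR. The unadjusted p by edgeR was under 0.05 for 2 of the 10, beside 4550 of all 19500 transcripts tested. The Lcp1 rise was smaller in Ago2 ADH than in Dicer KO oocytes by a log2 difference of -0.20 (interval -0.35 to -0.04, unadjusted p = 0.024, adjusted p = 0.142 by edgeR). For Spire1 the difference of the effects was also -0.20 (-0.34 to -0.06, unadjusted p = 0.0103, adjusted p = 0.0864). The interval for Actg1 was -0.15 to 0.19, and for Pls3, with few counts, -0.33 to 0.84.

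Lcp1 marks leukocytes, so leukocyte markers were read beside it. The 13 of 14 leukocyte markers found in the files summed to 6.57 to 6.61 CPM in Ago2 fl/fl, 14.7 to 17.4 in Ago2 ADH, 10.9 to 13.5 in Ago2 null, 3.31 to 5.30 in Dicer WT and 9.50 to 12.6 CPM in Dicer KO libraries. The sum therefore moved in the direction of Lcp1. Nearly all of it was Itgb2, the integrin beta 2 subunit, with mean levels of 1.496, 11.2, 7.77, 0.908 and 6.54 CPM in these groups in the same order, and Laptm5, at 3.30 to 4.60 CPM in all groups. The other 11 markers were low in all libraries. Ptprc, Cd52, Tyrobp, Cd14, Lyz2 and Cd79a had at most 2 counts in any library, and Coro1a, Adgre1, Cd3e, Fcer1g and Csf1r had at most 6, 11, 11, 13 and 26 counts. The part of leukocytes in the Lcp1 rise was not tested. Granulosa cell markers summed to 57.5 to 104 CPM, and this sum was lower in the mutant than in the control libraries of each series. Most of it was Cyp19a1 and Nr5a2, with means of 33.5 and 37.2 CPM in Ago2 fl/fl and 22.9 and 32.5 CPM in Ago2 ADH oocytes. Both were also lower in Ago2 null and Dicer KO oocytes than in their controls. Rarer markers moved both ways in Ago2 ADH oocytes. Inha was at 0.753 CPM in Ago2 fl/fl and 1.44 in Ago2 ADH oocytes, and Has2 at 0.882 and 0.42 CPM. The number of granulosa cells was not tested.

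The genes whose pattern was most like that of Lcp1 over the 14 libraries were Sp110, Tbcd, Rps23, Ralgapa2 and Prom1. Likeness was the root mean square difference from Lcp1 in log2 CPM, with each library taken relative to the mean of its own controls, over 10348 genes with a mean of at least 100 counts. Sp110, which codes for a nuclear body protein, differed by 0.101. It was 6.12-fold above controls in Ago2 ADH, 5.89-fold in Ago2 null and 8.14-fold in Dicer KO oocytes. Tbcd, a folding cofactor of tubulin, differed by 0.108 and was 6.72-, 7.01- and 7.24-fold above controls. The ribosomal protein gene Rps23 differed by 0.148, the Ral GTPase activating subunit gene Ralgapa2 by 0.150 and Prom1, a membrane glycoprotein gene, by 0.153. Sp110 and Rps23 have near-identical copies elsewhere in the genome, so their counts are uncertain.

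The rest of the actin pathway, in 13 lists of 149 genes, held rises and falls in similar numbers. In Ago2 ADH oocytes 33 of 135 genes tested rose (24.4%) and 27 fell (20%), with a median log2 fold change of 0.01, which is also the median of all genes. In Ago2 null oocytes 29 of 135 rose (21.5%) and 25 fell (18.5%), with a median of 0.0025 beside 0.0092 for all genes. In Dicer KO oocytes 28 of 132 rose (21.2%) and 24 fell (18.2%), with a median of 0.04 beside 0.0004. These shares lie near those of all genes given above. Between Ago2 ADH and Ago2 null oocytes none of 135 was called by edgeR, and 7 had an unadjusted p under 0.05, beside 1931 of all 19306 transcripts tested. The nearest was Daam1, a formin chosen for mention after its values were seen, with a log2 difference of 0.40 and an adjusted p of 0.0104 by edgeR. It passed under 8 of the other settings tried and under none of those that left out 1 library.

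The lists are given by what their proteins do. Beside their counts stand the shares of all genes that rose and fell, 21.0% and 19.9% in Ago2 ADH, 18.6% and 18.7% in Ago2 null, and 16.9% and 17.6% in Dicer KO oocytes. Each list is short, and no list was tested against these shares. Of 19 activators of the Arp2/3 complex, which nucleates branched filaments, 3 rose and 7 fell in Ago2 ADH, 3 and 6 in Ago2 null, and 1 and 5 in Dicer KO oocytes. Of the 10 genes for subunits of the complex itself, 4 rose and 2 fell in both Ago2 mutants, and 0 rose and 1 fell in Dicer KO oocytes. Of the 12 other formins, 3 rose in each mutant, while 1 fell in Ago2 ADH, 3 in Ago2 null and 4 in Dicer KO oocytes. Other bundling and crosslinking genes, the relatives of Lcp1 by function, gave 2 rises and 3 falls among 17 in both Ago2 mutants, and 4 rises and 3 falls among 16 in Dicer KO oocytes. Further monomer binding and severing genes gave 6 rises and 2 falls among 19 in Ago2 ADH, 4 and 2 among 19 in Ago2 null, and 4 and 2 among 18 in Dicer KO oocytes. Of 8 cofilin kinases and phosphatases, 2 rose and 1 fell in Ago2 ADH, and 1 rose and 1 fell in each of the other mutants. Of 8 genes for the capping of filament ends, 2 rose and 1 fell in each mutant. Of 14 myosins and light chains, 3 rose and 4 fell in Ago2 ADH, 3 and 3 in Ago2 null, and 5 and 3 in Dicer KO oocytes. Of the 7 vesicle partners of Fmn2 and Spire, 2 rose in each mutant and 1 fell, in Dicer KO oocytes. Of 4 tropomyosins, 1 rose in each Ago2 mutant and 2 in Dicer KO oocytes, and none fell. Of 4 linkers of filaments to the membrane, 1 rose in each mutant, while 2 fell in each Ago2 mutant and 1 in Dicer KO oocytes. Of the 5 other actin isoforms, Actg2 alone had enough counts to be tested, and it fell in each mutant.

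Single pathway genes were ranked where they passed the test, averaged 100 normalized counts or more and had groups that did not overlap. Rab11b, a GTPase of recycling vesicles related to the Rab11a of the oocyte's actin-bound vesicles, had the largest rise in Ago2 ADH and Dicer KO oocytes. It rose 5.42-fold in Ago2 ADH (log2 2.44 ± 0.069), 5.52-fold in Ago2 null (2.46 ± 0.075) and 7.11-fold in Dicer KO oocytes (2.83 ± 0.083, adjusted p = 3.18e-15 by edgeR). Myh10, a nonmuscle myosin heavy chain, rose 5.24-fold in Ago2 ADH and 4.96-fold in Ago2 null oocytes. Tmod1 and Tmod2, which cap the pointed ends of filaments, moved in opposite directions. Tmod1 rose 5.11-fold in Ago2 ADH, 5.93-fold in Ago2 null and 6.20-fold in Dicer KO oocytes, whereas Tmod2 fell to 0.411 of the control level in Ago2 ADH and to 0.460 of it in Ago2 null oocytes. Actg2, the smooth muscle gamma actin, fell to 0.275 and 0.1997 of the control level in Ago2 ADH and Ago2 null oocytes while Actg1 rose. In Dicer KO oocytes Actg2 also fell, with a log2 fold change of -3.12, but it did not meet the other conditions of the ranking. Myh10 and Tmod2 were not among the 3 largest ranked changes in each direction there. Myo1e, a membrane-bound myosin, fell to 0.285 in Ago2 ADH, 0.232 in Ago2 null and 0.299 in Dicer KO oocytes. In Dicer KO oocytes the 3 largest ranked changes in each direction also held Myo10, the filopodial myosin, with a 3.79-fold rise, and Pfn4 and Eps8, with falls to 0.527 and 0.560 of Dicer WT. Myo10 moved the other way in both Ago2 mutants, falling to 0.847 of the Ago2 fl/fl level in Ago2 ADH (log2 -0.24 ± 0.046, adjusted p = 0.00024 by edgeR) and to 0.725 of it in Ago2 null oocytes (-0.46 ± 0.066, adjusted p = 2.14e-05). Its control levels also differed between the series. Mean normalized counts, scaled within each comparison, were 3325 in Dicer WT and 12605 in Dicer KO, beside 20860 in Ago2 fl/fl and 17664 in Ago2 ADH oocytes. Pfn4 is a testis profilin, and Eps8 caps and bundles filaments.

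**Figure D4:**
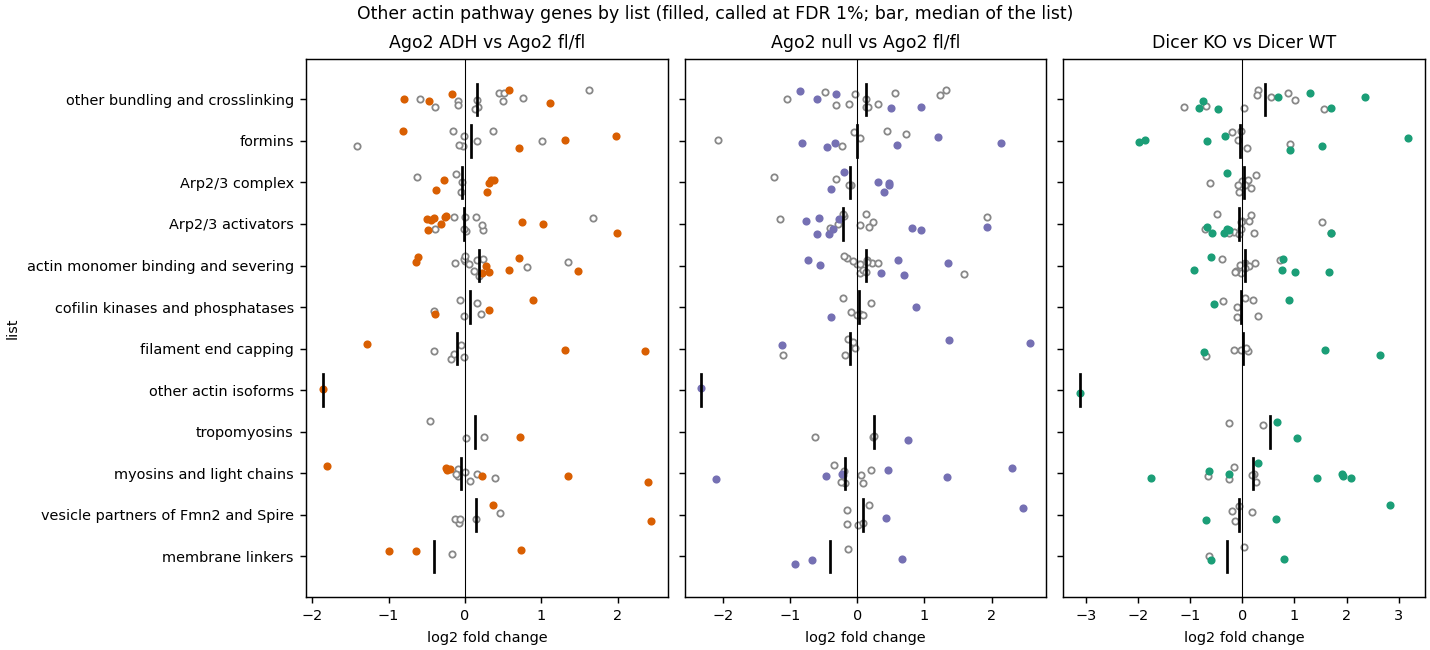
Log2 fold change (horizontal axis) of the other actin pathway genes in 12 of the lists in the 3 comparisons with controls. Each point is a gene, filled where it passed edgeR's test at an FDR of 1%, and the bar is the median of the list. Rises and falls stand side by side in most lists, as in the Arp2/3 activators with 3 rises and 7 falls in Ago2 ADH oocytes. These are 15.8% and 36.8% of 19 genes, beside 21.0% and 19.9% of all genes.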

How the data were processed

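Paired-end RNA-seq had been performed on 14 libraries of 20 oocytes. The deposited values are raw counts of reads per RefSeq transcript, without normalization. The authors aligned reads to mm10 with TopHat2 (2.0.7 per the processing notes), allowing as many as 100 alignments for a read, and counted with HTSeq (0.6.1) without strand. The cDNA was amplified and carried no molecular identifiers, so reads are not independent molecules. Groups and replicate numbers came from the sample labels. Replicates of a group differed by more than sampling noise (chi-square per degree of freedom 6.54 to 14.9). The paper states that the replicates of a group were obtained by repeated collections, but it does not tie single libraries to collections. The p-values therefore measure the spread between these libraries.

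Of 26495 transcripts, 26081 were matched to symbols in RefSeq and 113 in GENCODE M21 (GRCm38, the assembly called mm10), and 26031 had a length there. The transcript with the highest mean count stood for its gene. Rows for reads outside transcripts were left out. With edgeR 4.0.16 (R 4.3.3), all transcripts were fitted for each comparison on the libraries of its groups (filterByExpr with a minimum count of 10 and a total of 15, TMM, quasi-likelihood test, Benjamini-Hochberg adjustment, FDR 1%). The SE is the absolute log2 fold change divided by the square root of F, and 95% intervals are the normal ones from this SE. CPM were scaled by TMM over 14 libraries, and RPKM are CPM per kilobase of transcript. The test was checked on simulated counts. Permutation tests used scipy 1.17.1 and Python 3.11.15. Promoter sequences came from RefSeq on GRCm38.p6. No protein sequences were used here.

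The genes and lists were chosen with earlier results of these data known. The genes named were the 10 of the set, Ago2 and Dicer1, up to 3 largest rises and falls per comparison among pathway genes (FDR 1%, a mean of at least 100 normalized counts, groups not overlapping), and the 5 genes most like Lcp1. One of the pathway lists enters the totals but is not reported here on its own. Marker lists for oocytes, leukocytes, granulosa cells, theca or stroma, erythrocytes and endothelium were summed per library. Theca or stroma markers summed to 1.23 to 9.23 CPM, erythrocyte markers to 0.171 to 0.786 and endothelial markers to 42.1 to 60.2 CPM over the 14 libraries. The alternatives were DESeq2 1.42.0 (independent filtering off), RLE normalization, library totals, omission of the filter, a minimum of 10 counts in every library, FDR 5%, 1 transcript per gene, all 5 groups in 1 fit, a replicate block and each library left out.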

Additional observations from a re-analysis of the deposited data

How the results depend on the processing

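Over the 5 comparisons, 790 log2 fold changes of the 10 genes were recomputed under other settings, and 775 kept their side of the FDR threshold. None of the calls changed direction, 9 were lost and 6 were gained. Lcp1 kept its rise under all settings, with a log2 fold change of 2.71 to 2.82 in Ago2 ADH, 2.60 to 2.72 in Ago2 null and 2.85 to 2.95 in Dicer KO oocytes, and so did Pls3, Actb and Actg1 in all 3. The calls that changed were those of Pls1, Fmn2 and Pfn1 given above, Fmn2 with library totals in Dicer KO oocytes (-0.20, adjusted p = 0.00346 by edgeR), and at an FDR of 5% Spire2 in Ago2 ADH, Pfn1 in Ago2 null and Spire1 in Dicer KO oocytes. The causes were not tested. The Lcp1 share is a ratio within a library, which normalization and filter do not enter. Leaving out 1 library moved its difference from controls to between 44.3 and 46.5 percentage points in Ago2 ADH, 44.6 and 47.8 in Ago2 null and 50.2 and 51.0 in Dicer KO oocytes, and undivided counts gave 45.6, 46.4 and 50.8.

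In the comparison of Ago2 ADH with Ago2 null oocytes, 1 pathway gene, Daam1, in place of 0 was called with DESeq2, RLE normalization, without the filter, with a minimum of 10 counts in every library, FDR 5%, 1 transcript per gene, all 5 groups in 1 fit and the replicate block. Same-numbered libraries did not deviate together (r from -0.142 to 0.0577 across transcripts), so numbers were not taken to pair libraries. With the replicate block the number of the 10 genes called was 7 in Ago2 ADH, 5 in Ago2 null and 7 in Dicer KO oocytes. Leaving out 1 library gave 7 to 8, 4 to 7 and 6 to 7. With library totals in place of TMM, 49.6% in place of 33.8% of the transcripts called by the interaction term had the higher fold change in Ago2 ADH oocytes. This share was 46.5% with DESeq2 and 42.8% with RLE normalization, and 30% to 41.4% under the other settings that kept all libraries. At the depth of Spire2 (139 to 367 counts per library) a log2 difference of -0.36 was not called.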
